A study of Mus musculus with 4 samples.

Results

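The genes of the phosphoprotein phosphatase family, whose mouse symbols start with Ppp followed by a digit, were examined in adult testis. They encode the catalytic subunits of the serine/threonine phosphatases PP1, PP2A, calcineurin, PP4, PP5 and PP6 and the regulatory proteins that bind them. By this rule on the symbol, 49 of the 12715 genes with exon counts were members. All 49 had sense counts, among 12415 genes, and 11 also had antisense counts, among 2346. The rule used no measured value, but the members were chosen with earlier results of these data known.

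Strand-specific total RNA libraries, depleted of ribosomal RNA, were made from testes of adult C57Bl/6J mice at 60 days of age. They came from Nef-sp-/- mice (2 libraries) and Nef-sp+/- mice (2 libraries). *Nef-sp* encodes a nuclear exoribonuclease of the testis and is listed in the counts as 2610020H08Rik. The null allele carries a short out-of-frame deletion made in embryos with a Cas9 nickase and a pair of guide RNAs. The line was founded by crosses with wild-type C57Bl/6J Rj males. The Nef-sp+/- controls also carry this allele, in a single copy, so neither group is wild type. The labels do not say whether libraries of a genotype came from separate animals, so p-values measure the spread between these libraries, which may be technical.

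Phosphatases of this family remove phosphate from serine and threonine. A few catalytic subunits serve a large number of substrates, because each joins different regulatory proteins that choose the substrate, place the enzyme in the cell or inhibit it. PP2A is built from a scaffold, a catalytic and a variable B subunit, and calcineurin from a catalytic A subunit and a calcium-binding B subunit. In the testis, the PP1 gamma gene *Ppp1cc* is known for a sperm-enriched splice form and is required for male fertility, and *Ppp3cc* with *Ppp3r2* encode the calcineurin of sperm.

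Paralogs within the family encode similar proteins, and reads were 50 bases long and kept only where they matched the genome perfectly. Coding sequences of the paralogs compared were 71.0% to 81.7% identical in the GENCODE vM1 annotation of mm9, lowest for *Ppp3cb* with *Ppp3cc* and highest for *Ppp2ca* with *Ppp2cb*. Among protein-coding transcripts, no 50-base stretch was shared between members. The stretches below are among the most alike coding windows of each set and show how far a single read could separate the genes. Capitals mark the positions at which the genes of a set differ, which number 5 for PP1, 3 for PP2A and 6 for calcineurin B. The PP1 windows are chr19:4194838-4194887 in exon 6 of 7 of *Ppp1ca*, chr5:32790010-32790059 in exon 7 of 8 of *Ppp1cb* and chr5:122623221-122623270 in exon 6 of 8 of *Ppp1cc*. The PP2A windows are chr11:51912565-51912614 in exon 1 of 7 of *Ppp2ca* and chr8:34710403-34710452 in exon 1 of 7 of *Ppp2cb*. The calcineurin B windows are chr11:17094710-17094759 in exon 5 of 6 of *Ppp3r1* and chr4:49694453-49694502 in exon 1 of 2 of *Ppp3r2*. All are in mm9 coordinates, on the plus strand except for *Ppp3r2*, and are written 5′ to 3′ along the transcript.
Ppp1ca: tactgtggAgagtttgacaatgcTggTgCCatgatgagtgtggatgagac
Ppp1cb: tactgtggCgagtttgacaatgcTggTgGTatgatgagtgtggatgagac
Ppp1cc: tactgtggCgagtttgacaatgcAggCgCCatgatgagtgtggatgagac
Ppp2ca: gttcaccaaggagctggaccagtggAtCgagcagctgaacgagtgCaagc
Ppp2cb: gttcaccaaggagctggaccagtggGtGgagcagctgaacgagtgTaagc
Ppp3r1: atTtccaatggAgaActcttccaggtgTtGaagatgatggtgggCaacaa
Ppp3r2: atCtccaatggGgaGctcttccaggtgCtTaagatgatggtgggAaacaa

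Copies outside the annotated coding genes were a different matter for a few members. For each 50-base stretch of the coding transcripts, perfect matches were sought on all 22 assembled chromosomes of mm9 outside the gene itself. For 28 of the 49 members there was none. For 8 members more than 10% of the stretches had a match elsewhere. *Ppp1cc* was highest, with 91.6% of its 2383 stretches, all of which match the annotated pseudogene Gm5601 at chr7:126883425-126885738. Gm5601 lies 51.8 kb from the *Nef-sp* gene on chromosome 7, and the *Ppp1cc* window printed above is among the stretches it shares. *Ppp1r14b* had matches for 63.3% of stretches, and 522 of its 870 stretches match at the pseudogene Gm7332 on chromosome 5. *Ppp4r2* had 55.8%, *Ppp2r3c* 33.0%, *Ppp1r2* 32.8%, *Ppp2r5a* 19.2%, *Ppp1r10* 17.8% and *Ppp2r2a* 10.4%. How reads with several matches were counted is not given in the sources used here, so the counts of these 8 genes may include or lack reads that also match the copies, and their levels are uncertain to that extent.

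**Figure D1:**
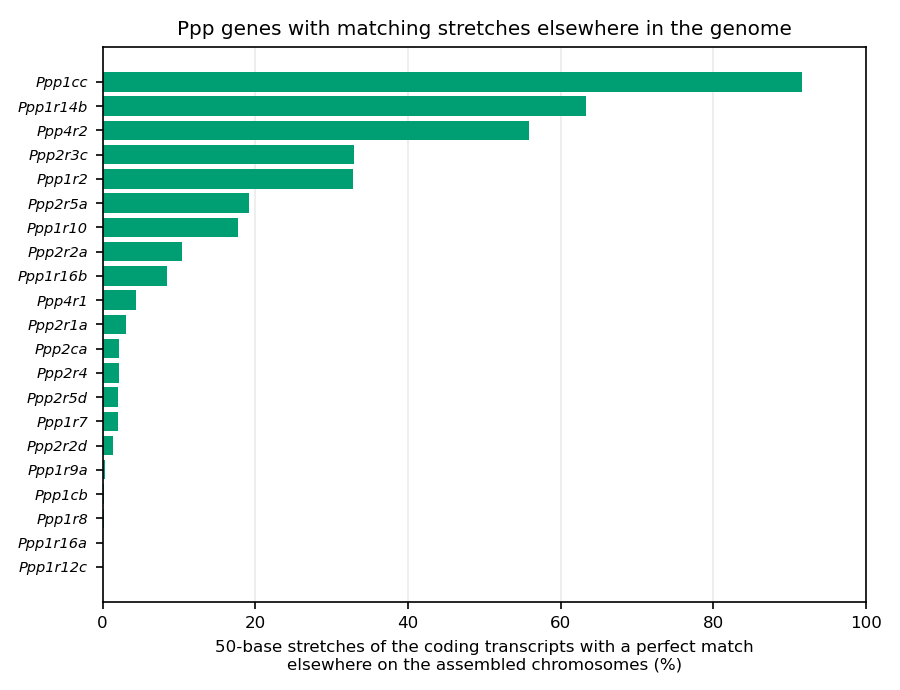
Share of the 50-base stretches of each gene's coding transcripts (x axis, percent) that match another place on the assembled chromosomes perfectly, for the 21 members with any such stretch. *Ppp1cc* stands at 91.6%, and 8 members exceed 10%.

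Total counts over all annotation categories were between 20659865 and 34442517 reads per library. Members took between 0.659% and 0.668% of exon sense reads in each library. The targeted gene was lower in the libraries labelled Nef-sp-/-, with normalised counts of 1843 and 1693 in the Nef-sp+/- testes and 407 and 497 in Nef-sp-/- (log2 fold change -1.97, SE 0.0921, adjusted p = 4.1e-06, edgeR quasi-likelihood test with Benjamini-Hochberg adjustment). It was the single gene called among 10728. Defining markers of spermatogonia (6 of 6), spermatocytes (7 of 7), spermatids (8 of 8), Sertoli (5 of 7), Leydig (6 of 6) and peritubular myoid cells (5 of 5) were listed with counts, and of 4 epididymis markers 1 was listed, at 0 in 3 of the 4 libraries. Of macrophage and blood markers, 5 of 6 and 2 of 3 were listed. No marker was called by edgeR or DESeq2. In edgeR 6 of 40 tested had an unadjusted p below 0.05, against 4.8% of all genes tested. In DESeq2 5 of 40 had one, against 1.38% of all genes tested. The 6 in edgeR were *Akap4* (log2 fold change 0.20) and *Tnp1* (0.18) of spermatids, *Cyp11a1* (-0.35) and *Cyp17a1* (-0.27) of Leydig cells, *C1qa* (-0.40) of macrophages and *Hba-a2* (-0.57) of blood. Except for the 2 blood markers tested, the markers of a cell type did not all go the same way. Of the Leydig markers tested, 4 had a log2 fold change above 0 and 2 below (median 0.09). For spermatids these numbers were 7 and 1, for macrophages 1 and 3, and for blood 0 and 2. The part of the markers in the results for members was not tested. In these bulk libraries, fewer cells of a type and less RNA per cell cannot be told apart.

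Levels between genes were compared as RPKM, the exon sense reads divided by the annotated exon length in kb and by the size of the library, called the level below. The family was uneven, with a median level of 12.98 and a range from 0.0078 for *Ppp1r3f* to 331 for *Ppp1cc*. *Ppp1cc*, *Ppp3r2*, *Ppp1r11* and *Ppp2r5c* together held 49.7% of all member reads. Within PP1, the core of PP2A and calcineurin, 1 paralog of each subunit stood above the others in all 4 libraries.

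Among PP1 catalytic subunits, *Ppp1cc* had levels of 333 and 333 in the Nef-sp+/- testes and 331 and 326 in Nef-sp-/-. *Ppp1ca* (PP1 alpha) had levels of 16.1 and 16.7 in the Nef-sp+/- testes and 16.3 and 18.8 in Nef-sp-/-. *Ppp1cb* (PP1 beta) had levels of 16.2 and 15.6 in the Nef-sp+/- testes and 13.6 and 15.6 in Nef-sp-/-. The level of *Ppp1cc* was thus 17.3 to 20.6 times that of *Ppp1ca* and 20.6 to 24.3 times that of *Ppp1cb*. With the length of the longest coding transcript instead of all exon bases, chosen after the data were seen, these ratios were 44.6 and 42.8, and the copy on chromosome 7 adds to the uncertainty. *Ppp1ca* and *Ppp1cb* could not be ordered, since their ratio was between 0.9997 and 1.20 across libraries.

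The PP1 regulatory genes covered the widest range. *Ppp1r11*, which encodes the PP1 inhibitor known as inhibitor 3, had levels of 311 and 332 in the Nef-sp+/- testes and 340 and 335 in Nef-sp-/-, close to those of *Ppp1cc* on this scale. With transcript length the mean levels were 407 and 785, and that of *Ppp1cc* is also uncertain from its copy. The next were inhibitors and nuclear partners of PP1. *Ppp1r14b*, another PP1 inhibitor, had a mean level of 80.2 over the 4 libraries. Those of *Ppp1r2* (inhibitor 2) and *Ppp1r10*, a nuclear targeting subunit, were 48.7 and 31.1. At the other end were the glycogen-targeting genes *Ppp1r3a*, *Ppp1r3c* and *Ppp1r3f*, with *Ppp1r16b*. Each of these 4 had a mean level of 0.151 or less and did not pass the filter on low counts.

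For PP2A, the beta forms of both the catalytic and the scaffold subunit were the more abundant. *Ppp2cb* had levels of 61.9 and 62.4 in the Nef-sp+/- testes and 59.8 and 60.5 in Nef-sp-/-. *Ppp2ca* had levels between 8.38 and 8.51 in the 4 libraries. The level of *Ppp2cb* was thus 7.03 to 7.45 times that of *Ppp2ca* (6.86 times with transcript length). This ratio depends on the annotated exon lengths, 1826 bases for *Ppp2cb* and 7490 for *Ppp2ca*, and the gene models behind the counts are not given. Mean normalised counts in the Nef-sp+/- testes, without division by length, were 2113 and 1174. Among scaffolds, *Ppp2r1b* was 3.51 to 4.14 times higher than *Ppp2r1a*, or 6.64 times with transcript length. Among B56 subunits, which direct PP2A to kinases and centromeres among other targets, *Ppp2r5c* led with levels of 128 and 125 in the Nef-sp+/- testes and 127 and 129 in Nef-sp-/-. It was 3.02 to 3.30 times the level of *Ppp2r5e* and 73.0 to 79.6 times that of *Ppp2r5d*, and *Ppp2r5b* did not pass the filter. The B55 genes *Ppp2r2d* and *Ppp2r2b* had mean levels of 28.9 and 25.8, and that of *Ppp2r2a* was 6.25 (82.1, 50.6 and 7.80 with transcript length). *Ppp2r4*, which encodes the PP2A activator, had a mean level of 25.5 (51.1 with transcript length).

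The calcineurin genes known from sperm were the abundant ones of their sets. *Ppp3r2*, the B subunit of sperm calcineurin, had levels of 301 and 301 in the Nef-sp+/- testes and 317 and 307 in Nef-sp-/-. Its paralog *Ppp3r1*, the B subunit of most tissues, had levels between 7.91 and 8.47, and *Ppp3r2* was 35.6 to 40.01 times higher. *Ppp3cc* had a mean level of 97.1, which was 4.80 to 5.06 times that of *Ppp3ca* (2.93 times with transcript length) and 26.2 to 28.2 times that of *Ppp3cb*. None of the stretches of *Ppp3r1*, *Ppp3r2* or the catalytic calcineurin genes matched elsewhere in the genome.

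The remaining enzymes had fewer genes. *Ppp4c*, the PP4 catalytic subunit, and *Ppp4r1*, a PP4 regulatory subunit, had mean levels of 88.1 and 73.9. Their order depended on the length used, since the ratio was 1.17 to 1.24 with exon bases and 0.913 with transcript length. *Ppp6c*, the PP6 catalytic subunit, had a mean level of 16.0, and that of *Ppp5c*, a phosphatase that works with heat shock protein partners, was 9.92.

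**Figure D2:**
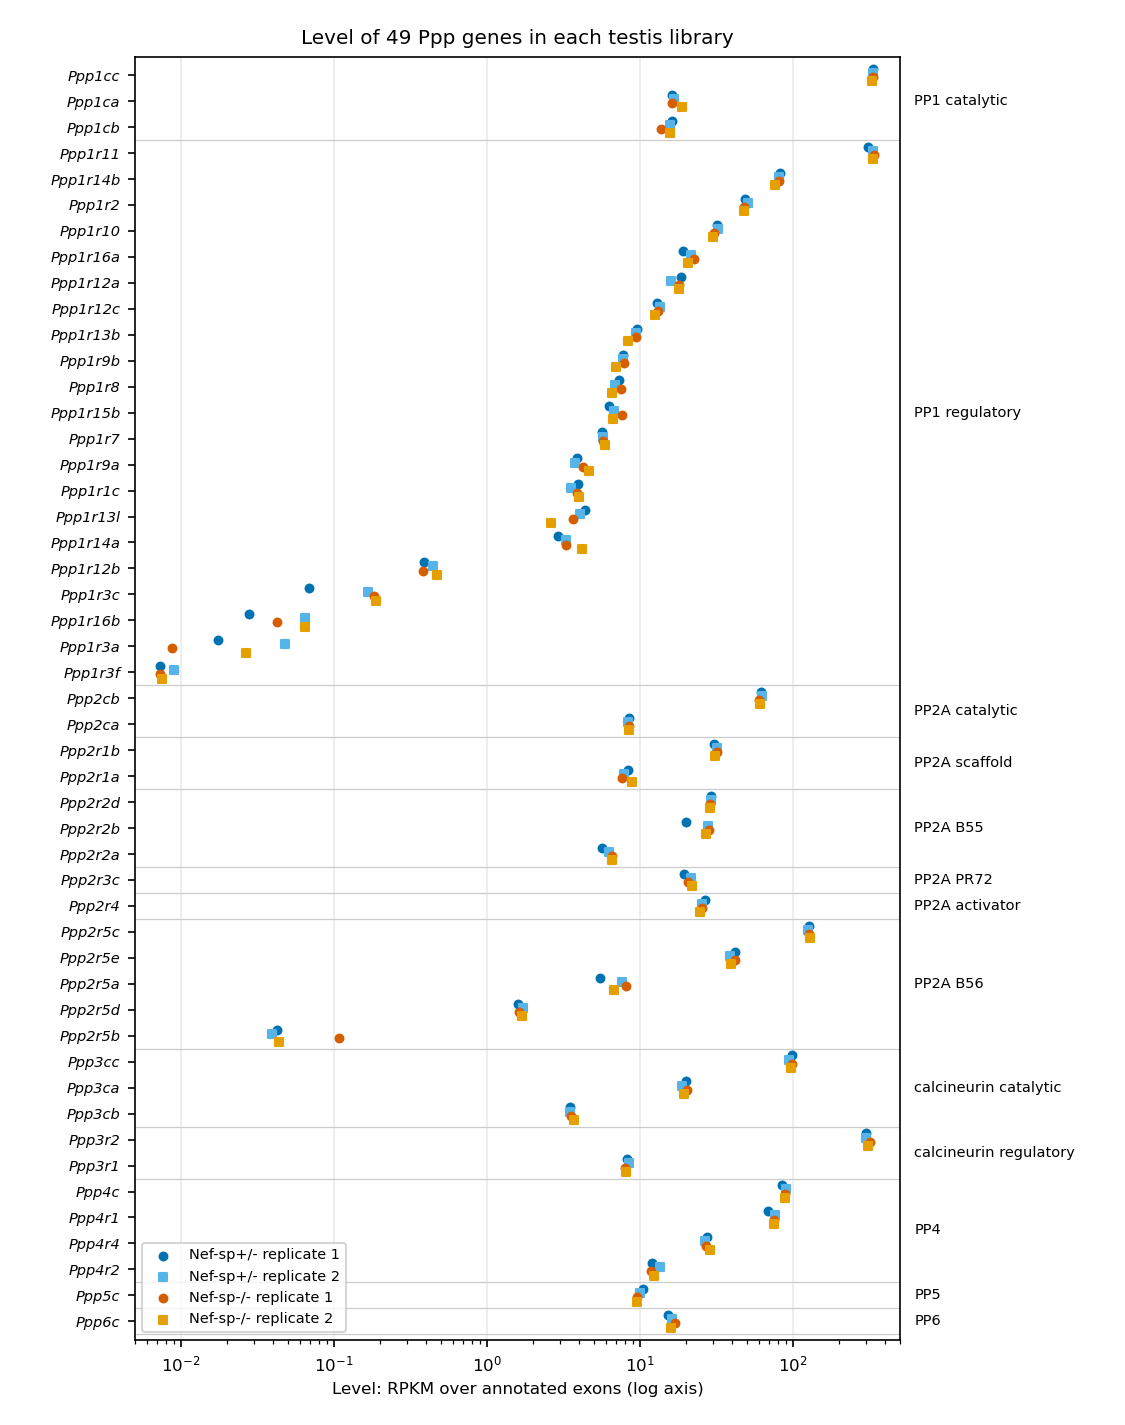
Level of each of the 49 members (x axis, RPKM over annotated exons, log axis) in the 4 libraries, grouped by enzyme and subunit. Blue points are Nef-sp+/- and orange points Nef-sp-/- libraries. *Ppp1cc*, *Ppp1r11* and *Ppp3r2* stand above the other members in every library, and points of a gene lie close together except for the 5 genes below the filter and a few others such as *Ppp2r2b*.

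The comparison of Nef-sp-/- with Nef-sp+/- asked whether transcripts of these genes change when the exoribonuclease is lost. Of the 49 members, 44 passed the filter on low counts and were tested with all 10728 genes. By edgeR, 0 of 44 were called at an adjusted p below 0.05, against 0.00932% of all genes tested, and 2 had an unadjusted p below 0.05 (4.55%, against 4.8% of all genes). DESeq2 also called 0 of 44, with 2 at an unadjusted p below 0.05, against 1.38% of all genes. The median log2 fold change was 0.02 for members and -0.00022 for all genes tested. The median absolute log2 fold change was 0.057 for members and 0.071 for all genes. The 95% intervals of 44 of 44 members lay within a log2 change of 1 in either direction, as did those of 10161 of 10728 genes, and 42 of 44 lay within 0.5, as did 8251 of 10728. Interval widths depend on the count level, for which members and all genes were not matched.

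In 16 of 44 members (36.4%, against 34.5% of all genes) the counts of the genotypes did not overlap. These were 7 members higher in Nef-sp-/- (16.4% of all genes) and 9 lower (18.1% of all genes). These shares were near the background, and none of the 16 had an adjusted p below 0.05.

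**Figure D3:**
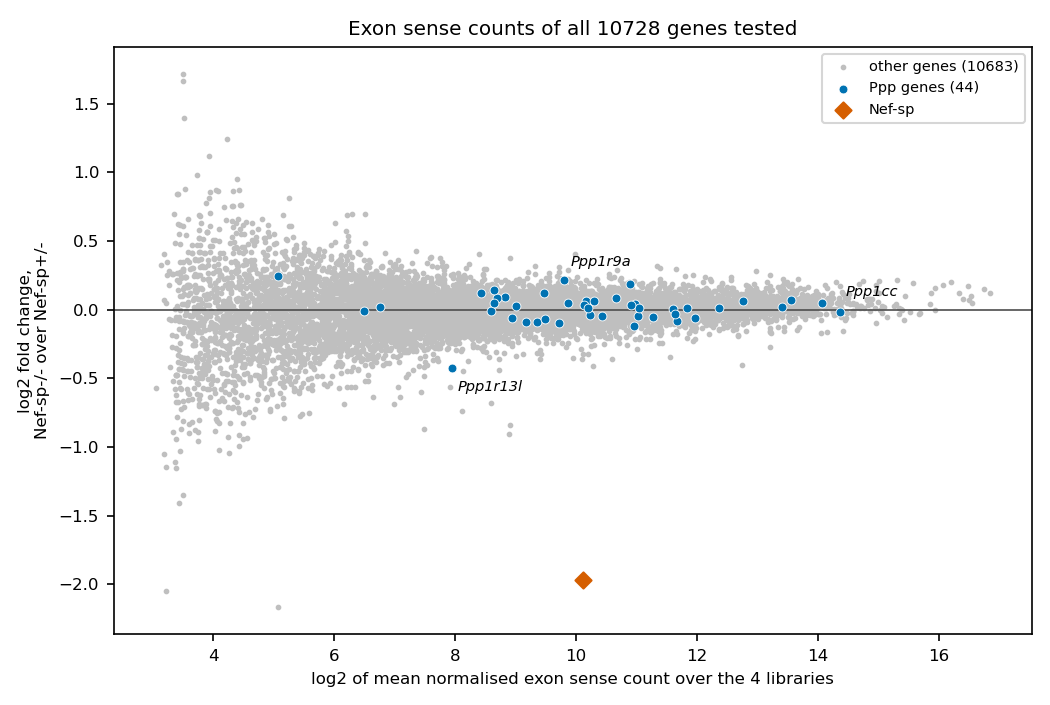
Log2 fold change between genotypes (y axis, positive where Nef-sp-/- is higher) against the log2 of the mean normalised exon sense count (x axis) for the 10728 genes tested. The 44 members (blue) lie within 0.42 of 0, inside the cloud of other genes (grey), and *Nef-sp* (orange diamond) lies at -1.97.

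Normalised counts of the 11 catalytic genes differed between genotypes by 0.12 or less on the log2 scale, and all had an adjusted p of at least 0.954 in the edgeR quasi-likelihood test with Benjamini-Hochberg adjustment. *Ppp1cc* had normalised counts of 21216 and 21252 in the Nef-sp+/- testes and 21119 and 20787 in Nef-sp-/-. The log2 fold change was -0.02, with a 95% interval from -0.15 to 0.11. *Ppp1cb* had 2107 and 2035 in the Nef-sp+/- testes and 1780 and 2041 in Nef-sp-/-, and the groups overlapped. Its log2 fold change was -0.12, with an interval from -0.28 to 0.04, and that of *Ppp1ca* was 0.09, from -0.10 to 0.29.

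For PP2A, *Ppp2ca* had normalised counts of 1180 and 1169 in the Nef-sp+/- testes and 1187 and 1182 in Nef-sp-/- (log2 fold change 0.01, interval -0.12 to 0.15). *Ppp2cb* had 2105 and 2122 in the Nef-sp+/- testes and 2035 and 2059 in Nef-sp-/- (log2 fold change -0.05, interval -0.17 to 0.08). The groups did not overlap for either gene, but the differences were small beside their intervals. The scaffold genes *Ppp2r1a* and *Ppp2r1b* had log2 fold changes of 0.03 and 0.01. The catalytic calcineurin genes *Ppp3ca*, *Ppp3cb* and *Ppp3cc* had log2 fold changes of 0.04, 0.05 and 0.01. *Ppp3r2* had normalised counts of 16989.8 and 16971 in the Nef-sp+/- testes and 17846 and 17322 in Nef-sp-/-, higher in both, with a log2 fold change of 0.05 and an interval from -0.08 to 0.18. *Ppp3r1* was at -0.06. *Ppp4c*, *Ppp5c* and *Ppp6c* had log2 fold changes of 0.02, -0.09 and 0.06.

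The smallest p among members belonged to *Ppp1r13l*, which encodes iASPP, a PP1-binding inhibitor of p53. Its normalised counts were 292 and 272 in the Nef-sp+/- testes and 244 and 175 in Nef-sp-/-. Both Nef-sp-/- libraries were below both controls, and replicate 2 of Nef-sp-/- was the lowest. The log2 fold change was -0.42 (SE 0.138, interval -0.72 to -0.12), with an unadjusted p of 0.011 and an adjusted p of 0.954 (edgeR). It was -0.20 without replicate 2 of Nef-sp-/- and -0.68 without replicate 1 of Nef-sp-/-, and *Ppp1r13l* was called (adjusted p = 0.024, edgeR) only in a fit with crossed replicate numbers that was added after the data were seen. *Ppp1r9a*, which encodes the actin-binding PP1 partner neurabin, had 841 and 813 in the Nef-sp+/- testes and 911 and 1010 in Nef-sp-/-. It was higher in both Nef-sp-/- libraries, with a log2 fold change of 0.22 (SE 0.073, interval 0.06 to 0.38), an unadjusted p of 0.013 and an adjusted p of 0.954 (edgeR). Without replicate 2 of Nef-sp-/- it was 0.15. Neither gene passed the threshold with all libraries and no block.

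The other PP1 regulatory genes named by rule differed less. *Ppp1r11* had 11449 and 12197 in the Nef-sp+/- testes and 12507 and 12328 in Nef-sp-/- (log2 fold change 0.07). *Ppp1r2* was at -0.06, *Ppp1r10* at -0.08, *Ppp1r16a*, a myosin phosphatase targeting relative, at 0.09, and *Ppp1r15b*, which directs PP1 to the initiation factor eIF2 alpha, at 0.13. When a library was left out, *Ppp1r16a* ranged from 0.01 to 0.18 and *Ppp1r15b* from 0.02 to 0.23. Each of these 5 had an adjusted p of at least 0.954 in the edgeR test. The PP4 regulatory genes *Ppp4r1*, *Ppp4r2* and *Ppp4r4* were at 0.06, -0.09 and 0.04, *Ppp2r4* at -0.06, *Ppp2r5c* and *Ppp2r5e* at 0.02 and 0.01, and *Ppp2r2a* and *Ppp2r2d* at 0.12 and -0.03.

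**Figure D4:**
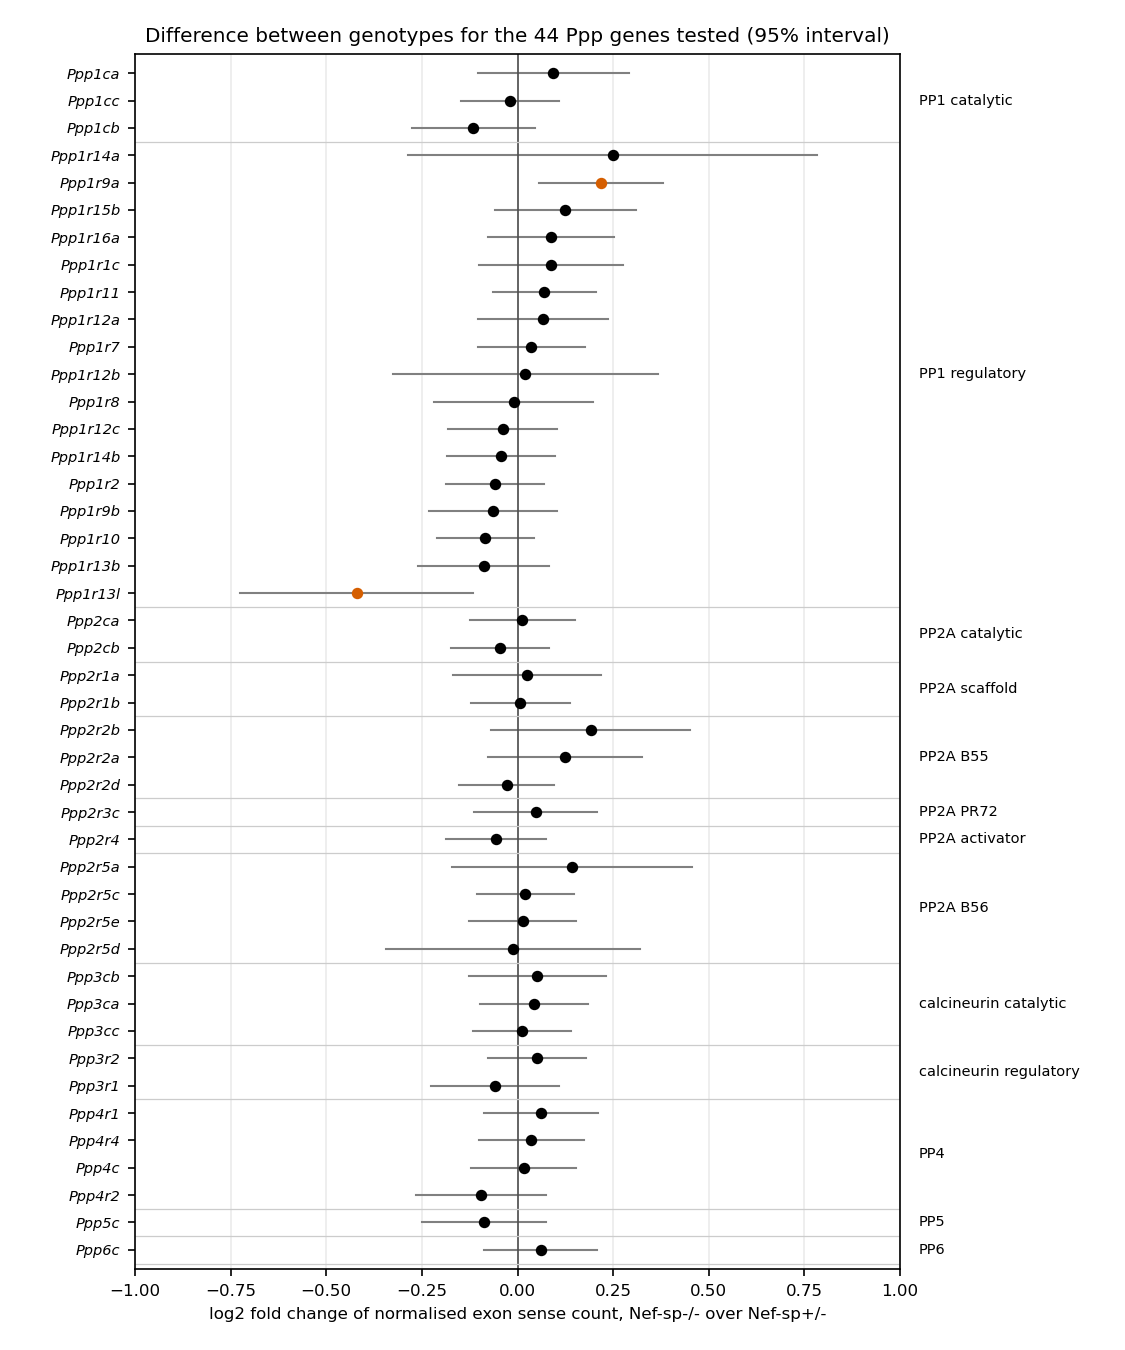
Log2 fold change in normalised exon sense counts (x axis, positive where Nef-sp-/- is higher) for the 44 members tested, grouped by enzyme, with 95% intervals. The 2 orange points, *Ppp1r9a* at 0.22 and *Ppp1r13l* at -0.42, have an unadjusted p below 0.05, and the intervals of the other 42 cross 0.

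In 2 PP2A B subunit genes, 1 control library decided the value. *Ppp2r2b*, a B55 subunit, had normalised counts of 1493 and 2068 in the Nef-sp+/- testes and 2097 and 1995 in Nef-sp-/-. *Ppp2r5a*, a B56 subunit, had 314 and 439 in the Nef-sp+/- testes and 463 and 386 in Nef-sp-/-. In both, replicate 1 of Nef-sp+/- was the lowest library, at 72.2% and 71.5% of replicate 2, and the groups overlapped. With all libraries the log2 fold changes were 0.19 and 0.14 (adjusted p = 0.954 and 0.956, edgeR). Without replicate 2 of Nef-sp+/- they were 0.46 and 0.43, and without replicate 1 they were -0.01 and -0.05. Each of these 2 fits holds 1 control library, so no spread between controls enters it and only the effect sizes are given. Replicate 1 of Nef-sp+/- was also the lowest library for 6 of 8 spermatid markers, among them the protamines *Prm1* and *Prm2*, but not for *Acrv1* and *Spaca1*. The normalised counts of the 8 summed to 405261 in it, against 501395 in the other control and 510766 and 498416 in Nef-sp-/-. Their part in the values of *Ppp2r2b* and *Ppp2r5a* was not tested. In general members varied little between replicates, with a median absolute log2 ratio of 0.074 between the Nef-sp+/- libraries and 0.062 between the Nef-sp-/- libraries. All genes tested had 0.098 and 0.097, but members and all genes were not matched for count level.

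The division of member reads among enzymes was also compared. PP1 catalytic genes took 19.3% ± 0.232 (SD, n = 2) of member reads in Nef-sp+/- libraries and 18.8% ± 0.167 in Nef-sp-/-. Regulatory PP1 genes took 24.3% and 24.4%, and calcineurin B genes took 14.2% and 14.6%. Of 13 classes, whose shares are parts of a single total and so not independent, 5 did not overlap between genotypes. In exon sense counts, 34.5% of all genes tested did not overlap. An exact two-sided permutation test with 2 libraries against 2 cannot give a p below 0.33, which these 5 reached, and the adjusted p was 0.867, so that no difference in these shares could have passed a threshold of 0.05.

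Antisense reads over exons showed a different order of genes. Of the 11 members with antisense counts, 4 passed the filter, among 1008 genes tested. *Ppp2r5d*, a B56 subunit with few sense reads, had raw antisense counts of 4928 and 8934 in the Nef-sp+/- testes and 5486 and 5171 in Nef-sp-/-. Its sense counts were 76 and 132 in the Nef-sp+/- testes and 76 and 78 in Nef-sp-/-. Thus 98.5% of its exon reads were antisense (95% Wilson interval 98.4% to 98.7% over the pooled libraries, counting error only). The neighbouring gene *Mea1*, on the opposite strand, shares 115 bases of non-coding exon with *Ppp2r5d* at chr17:46819940-46820054. The antisense count of *Ppp2r5d* was 49.0%, 48.3%, 48.0% and 48.5% of the sense count of *Mea1* in Nef-sp+/- replicates 1 and 2 and Nef-sp-/- replicates 1 and 2. Whether the same reads were counted for both genes was not tested.

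*Ppp2r1b* shares 578 bases of exon with the kinase gene *Sik2* on the other strand (chr9:50700917-50701494). Its antisense counts were 43.2% and 44.2% of the *Sik2* sense counts in the Nef-sp+/- testes and 55.2% and 46.4% in Nef-sp-/-. The converse, antisense reads listed under the neighbour, was found for 5 members. Antisense counts of *Rad9* were 20.8% to 27.3% of the *Ppp1ca* sense counts (222 shared bases), and those of *Ubxn8* were 9.40% to 10.8% of the *Ppp2cb* sense counts (209 shared bases). Those of *Mea1* were 4 to 13 reads (5.26% to 11.8% of the *Ppp2r5d* sense counts), those of *Sik2* 11 to 31 reads (0.402% to 0.690% of the *Ppp2r1b* sense counts) and those of *Foxp3*, beside *Ppp1r3f*, 0 to 2 reads. Antisense counts were listed for 5 of the 11 members with an opposite-strand exon overlap (45.5%) and for 6 of the 38 without (15.8%). Over all genes these shares were 38.8% of 2593 and 12.8% of 9081.

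Between genotypes, 0 of the 4 members with tested antisense counts were called by edgeR, against 0% of all 1008, and DESeq2 called 0 as well. In edgeR 1 of 4 had an unadjusted p below 0.05, against 2.98% of all, and in DESeq2 0. This was *Ppp1r11*, with normalised antisense counts of 21.0 and 21.5 in the Nef-sp+/- testes and 37.3 and 41.6 in Nef-sp-/-. Both Nef-sp-/- libraries were higher, and it was the single member of 4 without overlap, against 30.4% of all genes in either direction and 17.1% higher in Nef-sp-/-. The log2 fold change was 0.89 (SE 0.276, interval 0.33 to 1.45), with an unadjusted p of 0.0028 and an adjusted p of 0.996 (edgeR). These rest on 18, 31, 32 and 35 raw reads, which are 0.239% of the exon reads of this abundant gene over the 4 libraries, and GENCODE vM1 gives no exon on the opposite strand. *Ppp2r5a* had normalised antisense counts of 22.1 and 14.6 in the Nef-sp+/- testes and 19.8 and 33.3 in Nef-sp-/- (log2 fold change 0.59, overlapping, and 0.16 to 0.92 when a library was left out). *Ppp2r5d* and *Ppp2r1b* had log2 fold changes of 0.07 and 0.15, also overlapping (0.0053 to 0.12 and 0.013 to 0.26 when a library was left out).

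**Figure D5:**
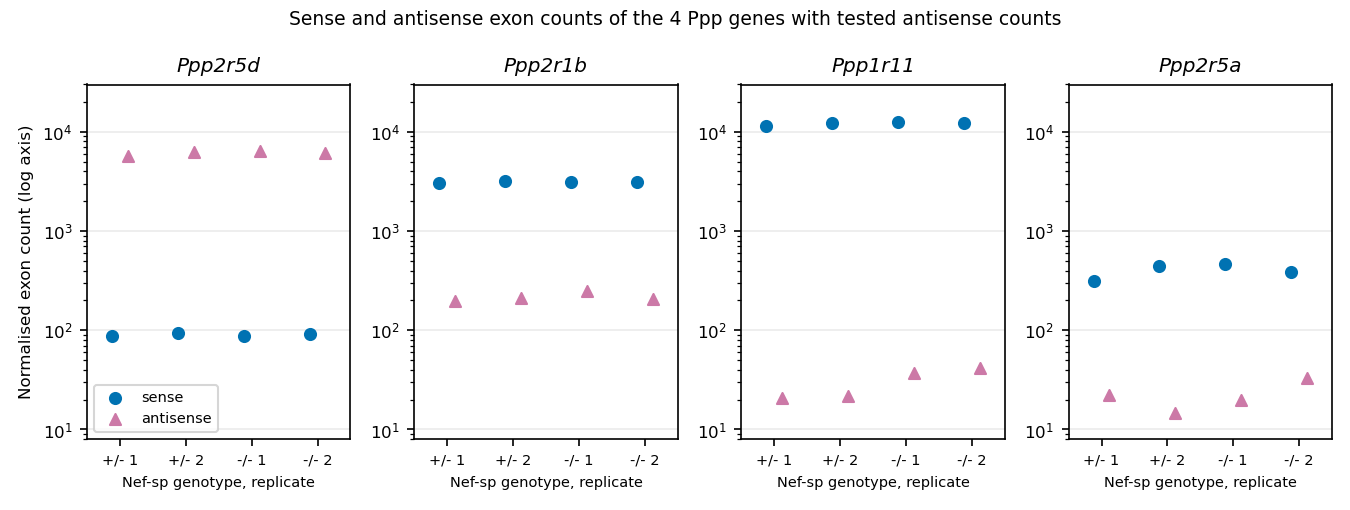
Normalised sense (blue circles) and antisense (pink triangles) exon counts (y axis, log axis) of the 4 members with tested antisense counts, in each library (x axis: genotype and replicate). In *Ppp2r5d* the antisense counts, from 5738 to 6393, are above the sense counts in every library, and in the other 3 genes they are below.

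Intron reads gave another readout of the same genes. Of 32 members with intron sense counts, 22 were tested among 3403 genes. By edgeR, 0 of 22 were called, against 0.0294% of all, and 0 had an unadjusted p below 0.05, against 2.35%. DESeq2 gave 0 and 0. Genotypes did not overlap in 7 of 22 (31.8%, against 28% of all), of which 3 were higher in Nef-sp-/- (13.5% of all) and 4 lower (14.5% of all). For antisense intron reads, 6 Ppp genes were tested, of which *Ppp2r2c* had no exon counts and so was not a member. Of these 6, 0 were called by edgeR or DESeq2, against 0% of 1421 genes. In edgeR 0 had an unadjusted p below 0.05, against 4.5%. Genotypes did not overlap in 2 of 6, against 32.7%. These were *Ppp2r2c*, higher in Nef-sp-/- (15.6% of all), and the member *Ppp2r5a*, lower (17.2% of all). The share of a gene's sense reads that lay in introns separated the members. It was 31.6% to 37.0% for *Ppp3cb*, 17.5% to 20.4% for *Ppp2r2b*, 12.6% to 14.5% for *Ppp1r10* and 0.376% to 0.515% for *Ppp1cc*. Exon counts of *Ppp1r10* and *Ppp1cc* may include or lack reads that match their copies, so the shares of these genes are uncertain. The genotypes overlapped in *Ppp3cb*, *Ppp1r10* and *Ppp1cc*. In *Ppp2r2b* the shares were 20.4% and 18.4% in the Nef-sp+/- testes and 17.5% and 18.2% in Nef-sp-/-, so the nearest values were close. Shares of *Ppp1r9a* also did not overlap, in the other direction, at 5.06% and 4.94% in the Nef-sp+/- testes and 5.51% and 5.53% in Nef-sp-/-. How often such shares fail to overlap over all genes was not counted, so no difference is read from them.

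Of the genes around the family under other names, 4 lists were examined. For metal-dependent phosphatases, 13 of 19 were listed and tested, 0 were called and 0 had an unadjusted p below 0.05, with a median log2 fold change of 0.05. For partners and inhibitors of PP2A and PP4, 19 of 25 were tested, 0 were called and 0 had an unadjusted p below 0.05 (median -0.01). For calcineurin regulators and targets, 6 of 15 were tested, with 0 and 0 (median -0.01). For PP1-binding proteins, 21 of 30 were tested, 0 were called and 4 had an unadjusted p below 0.05 in edgeR (median -0.01), as did 4.8% of all genes tested. In DESeq2 1 of the 21 had one, as did 1.38% of all genes. The 4 in edgeR were *Csrnp2* (0.17), *Spz1* (0.20), *Lmtk2* (-0.14) and *Wbp11* (-0.16), each with an adjusted p of 0.954 in edgeR. The median over all genes tested was -0.00022. DESeq2 called 0 genes of any of these lists, and in the other 3 lists 0 had an unadjusted p below 0.05.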

How the data were processed

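Total RNA of testes was sequenced in 4 strand-specific libraries, 2 Nef-sp-/- and 2 Nef-sp+/-, grouped by the sample labels. The members and gene lists were chosen with earlier results of these data known. Using software of their own, the authors trimmed adapters, mapped the reads to mm9, discarded reads with any mismatch and deposited raw counts per feature, annotation category and strand. Their gene models, software versions and handling of reads that match several places are not given in the sources used here. The authors also deposited a mean normalised signal, a log2 fold change and p-values of their own DESeq2 comparison, none of which was used.

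Each category was fitted over all its features with the quasi-likelihood test of edgeR 4.0.16 (R 4.3.3), without covariates, after TMM normalisation and the expression filter of edgeR (minimum count 10). P-values were adjusted by the Benjamini-Hochberg method within the category, and a feature was called at an adjusted p below 0.05. Normalised counts are counts scaled to the mean effective library size. Intervals of log2 fold changes are at 95%. Levels are RPKM over all annotated exon bases and effective exon sense totals. Shares of classes were compared by an exact permutation test and antisense shares given Wilson intervals. Total counts were 20659865 and 34442517 for Nef-sp+/- and 21104999 and 20685289 for Nef-sp-/-.

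Named were all catalytic genes, the 10 members with the smallest unadjusted p, the 10 most abundant non-catalytic members, members with tested antisense counts, scaffold, calcineurin B, PP4 and PP6 genes, and genes known from testis or as inhibitors. Members below the filter and the PP1 inhibitor *Ppp1r14b* were named for their levels after their values were seen. Gene positions and coding sequences came from GENCODE vM1 on mm9, and coding sequences were aligned with mafft 7.526. The 50-base stretches matched only the assembled chromosomes. Figures were drawn with matplotlib 3.10.9. The tests were checked on simulated counts. Alternatives were size factors of DESeq2 in edgeR, library size over all categories, no filter, a minimum of 10 counts in each library, the test of DESeq2 1.42.0, a single fit over all categories, a replicate block, each library left out, and, added after seeing the data, a crossed block and transcript length for levels.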

Additional observations from a re-analysis of the deposited data

How the results depend on the processing

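Among 44 members tested for exon sense counts, 0 were called under size factors of DESeq2, library size, no filter, a minimum of 10 counts in each library, the DESeq2 test, a single fit and the replicate block. The labels give only a replicate number, and whether it marks a pairing or batch was not tested. Libraries with the same number deviated from their genotype means with a correlation of -0.146 in exon sense counts. In the other categories it was between -0.068 and -0.295. With the replicate block, 0 members and 1 gene in all were called, and no other call changed. With the numbers crossed, added after seeing the data, 1 member (*Ppp1r13l*), 4 members at an unadjusted p below 0.05 and 99 genes were called. DESeq2 called 2 genes. Leaving out a library gave between 0 and 2 members called, between 2 and 6 at an unadjusted p below 0.05, between 1 and 252 genes called (252 without replicate 2 and 41 without replicate 1 of Nef-sp+/-) and between 0 and 3 antisense genes called (3 without replicate 2 of Nef-sp+/-). Each fit with a library left out holds 1 library of a genotype, so its calls rest on the spread of the other genotype alone. The cause of the differing numbers was not tested. No alternative called a member in antisense or intron counts.

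The median log2 fold change of members was -0.0059 with the library size and 0.0092 in a single fit, and between -0.0147 and 0.0161 when a library was left out. With the library size, the sign reversed for *Ppp2ca* (-0.011), *Ppp2r1b* (-0.016), *Ppp2r5c* (-0.0040), *Ppp2r5e* (-0.011), *Ppp3cc* (-0.013) and *Ppp4c* (-0.0078), and in a single fit for *Ppp2r1b* (-0.0013). Leaving out a library reversed the sign of further uncalled values, over these ranges: *Ppp1ca* (-0.0095 to 0.195), *Ppp2r1a* (-0.077 to 0.12), *Ppp2r1b* (-0.018 to 0.036), *Ppp2r2b* (-0.015 to 0.46), *Ppp2r5a* (-0.048 to 0.43), *Ppp2r5d* (-0.046 to 0.042), *Ppp2r5e* (-0.038 to 0.066), *Ppp3ca* (-0.0039 to 0.091), *Ppp3cc* (-0.0205 to 0.045), *Ppp4c* (-0.0303 to 0.068), *Ppp4r1* (-0.0196 to 0.15), *Ppp4r2* (-0.17 to 0.0023) and *Ppp4r4* (-0.0066 to 0.081). With 2 libraries a genotype, small differences may have been missed, and the smallest difference that could be called was not determined. The printed intervals do not give that limit, since each is for a single gene and not adjusted for the number of genes tested. The intervals of *Ppp1r13l* and *Ppp1r9a* left out 0, and neither gene was called with all libraries and no block. Counting intervals cover counting error only.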

Other observations

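A number of genes that now carry a Ppp symbol are listed in the counts under older symbols and were therefore not members. The synonyms in a RefSeq gene table matched 16 such genes, which were looked up after the names in the counts were seen. All 16 were tested for exon sense counts with the other genes. By edgeR 0 were called and 2 had an unadjusted p below 0.05, and by DESeq2 the numbers were 0 and 1. Their log2 fold changes, positive where Nef-sp-/- was higher, were between -0.09 and 0.21, with a median of 0.04. They include the PP6 regulatory genes *Saps1*, *Saps2* and *Saps3* (now *Ppp6r1*, *Ppp6r2* and *Ppp6r3*) at -0.01, 0.04 and -0.09, and the PP4 regulatory genes *Smek1* and *Smek2* (*Ppp4r3a* and *Ppp4r3b*) at -0.02 and 0.01. *4933415F23Rik* (*Ppp1r14bl*), a relative of the PP1 inhibitor gene *Ppp1r14b*, had normalised counts of 12608 and 14424 in the Nef-sp+/- testes and 14672 and 14322 in Nef-sp-/-, with a log2 fold change of 0.10.

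The 2 with an unadjusted p below 0.05 in edgeR are both copies of the inhibitor 2 gene *Ppp1r2*. *1700023I07Rik* (*Ppp1r2-ps7*) had normalised counts of 1654 and 1825 in the Nef-sp+/- testes and 1978 and 2041 in Nef-sp-/-, with a log2 fold change of 0.21 (SE 0.0668, unadjusted p = 0.011, adjusted p = 0.954, edgeR). *4930403L05Rik* (*Ppp1r2-ps9*) had 891 and 979 in the Nef-sp+/- testes and 1039 and 1055 in Nef-sp-/-, with a log2 fold change of 0.16 (SE 0.0702, unadjusted p = 0.045, adjusted p = 0.954, edgeR). Both were higher in both Nef-sp-/- libraries, and *Ppp1r2* itself was at -0.06. Neither passed the threshold, and 4.8% of all genes tested had an unadjusted p below 0.05 in edgeR and 1.38% in DESeq2.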
